A study of Mus musculus with 14 samples.

Results

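The cytosolic ribosomal protein genes were examined in the aortic valve leaflets of mice infused with angiotensin II (AngII) with or without an antagonist of the serotonin receptor HTR2B. Members were the protein-coding genes whose GENCODE symbol starts with Rpl or Rps followed by a digit, together with Rplp0, Rplp1, Rplp2 and Rpsa, and without the Rps6k kinases, Rps19bp1 and symbols marked as pseudogenes. The rule found 89 of the 56941 genes in the table, 54 named for the large subunit and 35 for the small subunit. It used names and no measured value. Of these, 86 had a mean count of at least 10 and were tested, among 19145 genes in all.

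RNA from the valves of 14 mice was sequenced, 1 library per mouse, and the reads were counted per gene. The groups were 4 untreated mice (Ctrl), 2 mice given LY272015 alone (LY), 4 mice infused with AngII (AngII) and 4 mice given both (AngII+LY). All were wild type C57BL/6J males that ate a Western diet and entered the study at 8 weeks of age, so the controls shared the diet. AngII was delivered by osmotic pump at 1000 ng/kg/min for 28 days, and LY272015 was injected at 3 mg/kg. According to the series record the pumps were taken out 48 h before collection, whereas the methods of the study describe removal in a subset, so infusion and withdrawal cannot be told apart in the AngII and AngII+LY values. The sources also differ on whether LY272015 was given on alternate days or less often, and some treatment labels carry neighbouring compound numbers, so groups were taken from the sample titles. The record states equal groups, but only 2 LY libraries were analysed here.

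The cytosolic ribosome reads messenger RNA and joins amino acids. Its small subunit decodes the message, its large subunit forms the peptide bond, and each subunit carries ribosomal RNA and a set of proteins made in near equal numbers. Most mammalian ribosomal protein mRNAs begin with a cytosine and a run of pyrimidines, the 5′ terminal oligopyrimidine (TOP) motif, through which mTOR signalling and LARP1 control their translation. In heart muscle, the large subunit protein Rpl3 can be replaced by its striated muscle paralog Rpl3l.

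The start regions of 6 members that stood at the ends of the comparisons are shown from RefSeq (build GRCm38.p6), 30 bases before the annotated start and 20 from it on, with capitals for a cytosine and the pyrimidines after it. The first 3 held such a run and the last 3 did not, within 5 bases of the annotated start and at a minimum length of 7. In Rpl39 a run of at least that length began just beyond this limit, and the annotated starts were not checked against reads.
Rplp2, chr7:141447621-141447670, plus strand: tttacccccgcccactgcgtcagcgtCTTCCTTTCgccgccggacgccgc
Rpl38, chr11:114668550-114668599, plus strand: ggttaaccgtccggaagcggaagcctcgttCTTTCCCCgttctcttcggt
Rpl22l1, chr3:28805478-28805527, plus strand: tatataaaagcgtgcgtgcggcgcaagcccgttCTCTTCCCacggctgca
Rpl24, chr16:55966245-55966294, plus strand: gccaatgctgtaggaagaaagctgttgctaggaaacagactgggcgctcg
Rpl27, chr11:101442215-101442264, plus strand: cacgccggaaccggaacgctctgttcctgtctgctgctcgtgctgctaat
Rpl39, chrX:37085203-37085252, minus strand: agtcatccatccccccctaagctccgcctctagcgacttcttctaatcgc

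Of the 89 members, 66 matched the RefSeq promoter table, and 24 of them (36.4%) held the pyrimidine run, against 7.6% of the 27025 symbols in that table. In the 250 bases before and 50 bases from the start on, both strands searched, CCGGAAG was found in 39.4% of the matched members and 9.9% of all symbols. The motif CTTTCC was found in 53.0% and 29.3%, AAGATGG in 15.2% and 7.3%, and TATAAA in 10.6% and 15.7%. CCGGAAG and AAGATGG can overlap by the letters AAG. Rplp2 and Rpl22l1 both held the run, and their log2 fold changes of AngII against Ctrl were -0.33 and 1.13. This pair was picked with its values known, and fold changes of members with and without the run were not compared.

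Library totals ran from 20990655 counts in AngII mouse 4 to 73128220 in AngII mouse 2. Mitochondrial transcripts took 4.00 to 7.52% of the Ctrl counts and 8.62 and 9.77% of the LY counts. They took 9.83 to 25.5% with AngII and 10.1 to 20.2% with both agents. AngII mice 3 and 4 stood apart, with mitochondrial shares of 24.7 and 25.5%. Markers of the tissue were present in every library: the 6 interstitial fibroblast markers held 0.465 to 1.83% of counts and the 4 endothelial markers 0.08 to 0.245%. The 9 cardiomyocyte markers, which belong to the neighbouring myocardium, were also detected in all 14 libraries. They held 0.824 to 2.94% of the Ctrl counts, 1.57 and 1.87% of the LY counts, and 0.755 to 1.51% with AngII alone against 1.93 to 4.01% with both agents. In bulk tissue, fewer cells of a type and less RNA per cell cannot be told apart.

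Levels among the members spanned a wide range. The median over the 86 tested members was 10680 normalized counts per kb of transcript, where normalized counts were scaled to the average library by TMM factors. Lengths were those of annotated transcripts, and which transcripts the valves express was not examined. Some were long for their coding sequence, such as 6093 bases for 291 coding bases in Rpl37, which stood at 1602 per kb. Levels per kb, and GC content from the same transcripts, are uncertain for such members. Rpl41, which encodes the shortest of the ribosomal proteins, was highest at 55890 per kb, followed by Rps29 at 46040 and Rps14 at 43460 per kb. Rpl39l, the paralog of Rpl39 best known from testis, was lowest at 55.0 per kb, below Rps10 at 235 and Rpl36al at 531 per kb. Rpl10l, the testis paralog of Rpl10, was at 0 in all 14 libraries, where 3 counts would be 1.4e-05% of the smallest library. The untested Rps23rg1 and Rpl27rt had mean counts of 2.64 and 3.64.

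The low level of Rps10, a small subunit protein mutated in Diamond-Blackfan anemia, went with counts on its copies. Ribosomal protein genes have left many processed pseudogenes, and 582 pseudogenes with at least 95% identity over at least 70% of a member's coding sequence were found for 78 of the 89 members. Their counts came to 6.36 to 7.12% of the members' counts in a library. The 2 copies of Rps10 together held 1310% of the normalized count of Rps10 itself, and the 19 copies of Rpl23a held 211%. Copies of Rpl17 held 55.2% and those of Rpl24 31.2%, so the levels of these members are uncertain. Rpl21 had the most copies, 58 in all. Adding the counts of copies to their member left the AngII comparison at 36 members with an unadjusted p under 0.05, against 4777 of 18899 genes.

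Together the 89 members held 1.86% ± 0.23 of all counts in Ctrl mice (SD, n = 4) and 1.40% ± 0.25 in AngII mice (SD, n = 4). The Ctrl values were 2.16, 1.78, 1.88 and 1.61%, and the AngII values were 1.65, 1.53, 1.36 and 1.07%. The LY values were 1.85 and 1.86%, and the AngII+LY values were 1.84, 2.05, 1.88 and 1.58%. The AngII mice had the lowest mean, and the highest AngII mouse lay above the lowest Ctrl mouse and the lowest AngII+LY mouse. Over non-mitochondrial counts alone the means were 1.97% (Ctrl), 2.04% (LY), 1.70% (AngII) and 2.13% (AngII+LY). Across the 14 libraries the share of non-mitochondrial counts had Pearson r = -0.354 (permutation p = 0.21, Benjamini-Hochberg adjusted 0.21) and Spearman rho = -0.218 (permutation p = 0.45, adjusted 0.45) with the mitochondrial share, in a family of 2 relations. Without AngII mice 3 and 4, the farthest on the mitochondrial axis, r was 0.246. Within Ctrl, AngII and AngII+LY r was -0.913, -0.496 and 0.3, each over 4 mice.

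**Figure D1:**
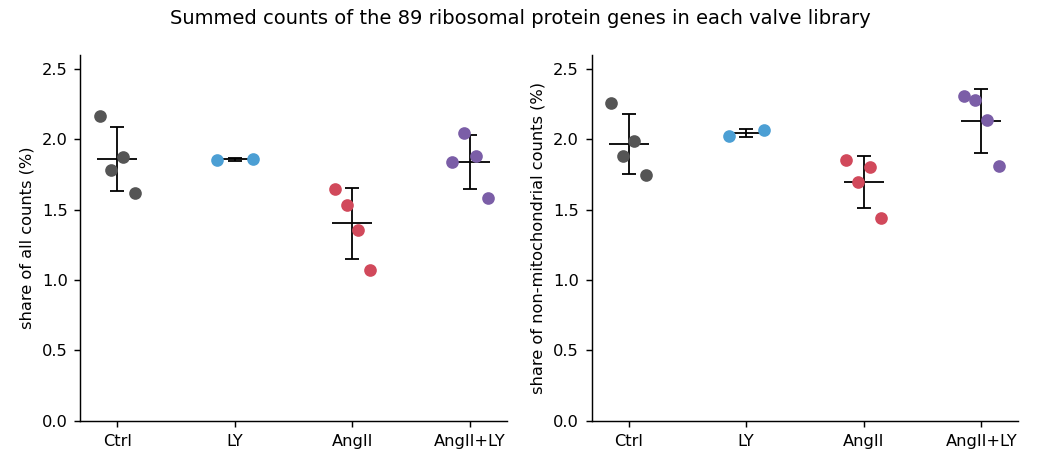
Summed counts of the 89 ribosomal protein genes in each mouse, as a percent of all counts (left) and of non-mitochondrial counts (right). Points are mice and bars are the mean ± SD of each group. The 4 AngII mice sit between 1.07 and 1.65% of all counts and have the lowest mean of the 4 groups.

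The comparison of AngII with Ctrl asks what infusion did to the valve transcriptome, and the members did not move as a block in it. Rpl39, Rpl22l1 and Rpl30 had the smallest p among members with a higher level in AngII mice, and Rpl7a, Rps3 and Rpl13 among those with a lower level. At an unadjusted p under 0.05, 12 of 86 members were higher (14%) against 13.4% of all genes tested, and 24 were lower (27.9%) against 11.7%, so the share of higher members was near that of all genes. The median log2 fold change was -0.29 over the members and -0.06 over all genes tested. By edgeR's quasi-likelihood test with Benjamini-Hochberg adjustment, 0 members and 0% of all genes passed an adjusted p under 0.05 with an absolute log2 fold change above 0.5. The smallest adjusted p was 0.0573.

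Other rules for a call gave other counts. DESeq2 called 7 members higher and 10 lower at the same thresholds, against 12.3% and 6.31% of the genes it tested. Without its legacy option, which is on by default, edgeR called 1 member, Rpl39, and 2.9% of all genes. Groups did not overlap for 4 members that were higher in AngII and 16 that were lower, against 7.46% and 7.56% of all genes. Leaving out AngII mouse 1, edgeR called 17 members and 9% of all genes, and leaving out Ctrl mouse 4 it called 2 members and 4.22%. It called 1 member and 2.01% of genes without AngII mouse 2, and 1 member and 0.377% of genes with no filter on low counts. Leaving out AngII mouse 4 moved the count at an unadjusted p under 0.05 from 36 to 22. That of all genes moved from 4815 of 19145 to 3181 of 19246. The 5 adipocyte markers were also lower in AngII mice (4 at an unadjusted p under 0.05), with 0.00975 to 0.0208% of counts in Ctrl and 0.00104 to 0.00432% in AngII. All 3 smooth muscle markers were lower at that threshold (median log2 fold change -3.75), with 0.00176 to 0.249% of counts in Ctrl and 0.00168 to 0.00789% in AngII, as were 2 of 4 macrophage markers (median of all 4 -0.87), with 0.0319 to 0.124% and 0.0291 to 0.0599%. The part of these markers in the result was not tested.

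Rpl39 (GRCm39 chrX:36345092-36349130, minus strand) encodes a small protein at the exit tunnel of the large subunit. It had 4692, 3303, 3427 and 4890 normalized counts in Ctrl mice and 7427, 8446, 16830 and 15260 in AngII mice. The LY mice had 5293 and 6574, and the AngII+LY mice 10620, 5925, 6330 and 5730. Every AngII mouse was above every Ctrl mouse, and AngII mice 3 and 4 were the highest of all 14. The log2 fold change of AngII against Ctrl was 1.56 ± 0.29 (SE), and edgeR's adjusted p was 0.0573.

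Rpl22l1, the paralog of the RNA-binding large subunit protein Rpl22, had 1576, 1056, 1154 and 2415 normalized counts in Ctrl mice and 2538, 3145, 4294 and 3623 in AngII mice. The groups did not overlap, with a log2 fold change of 1.13 ± 0.30 (SE, edgeR adjusted p = 0.0617). Rpl30, a large subunit protein, had 4679, 3615, 3460 and 3888 normalized counts in Ctrl mice and 5136, 5496, 9419 and 10730 in AngII mice, again without overlap. Its log2 fold change was 0.98 ± 0.28 (SE, edgeR adjusted p = 0.0691). Rpl5, which with Rpl11 and 5S RNA can bind and inhibit Mdm2, had a log2 fold change of 0.78, whereas its partner Rpl11 had -0.39. Rps27a, which is made as a fusion with ubiquitin, had 0.75. With the GC correction these values were 0.31, -0.14 and 0.35, and without AngII mice 3 and 4 they were 0.31, -0.24 and 0.30, and none kept an unadjusted p under 0.05 in either setting. Rpl30 moved to 0.59 with the correction and to 0.44 without these mice, where its p was lost.

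Rpl7a, a large subunit protein, was the lower member with the smallest p. It had 3936, 3442, 3227 and 3172 normalized counts in Ctrl mice and 2909, 2401, 1953 and 1449 in AngII mice, with no overlap. Its log2 fold change was -0.66 ± 0.19 (SE, edgeR adjusted p = 0.0743), and its 33 pseudogene copies held a further 21% of its count. Rpl13 had 33120, 31050, 32630 and 26790 in Ctrl and 24860, 21320, 20620 and 11420 in AngII mice, again without overlap (log2 fold change -0.66 ± 0.21 SE, edgeR adjusted p = 0.0921). Rps3, a protein at the mRNA entry of the small subunit, had a log2 fold change of -0.60 ± 0.19 (SE, edgeR adjusted p = 0.0902), and its AngII mouse 1 overlapped the lowest Ctrl mouse. AngII mouse 4 was the lowest of the 14 libraries for all of Rpl7a, Rpl13 and Rps3.

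**Figure D2:**
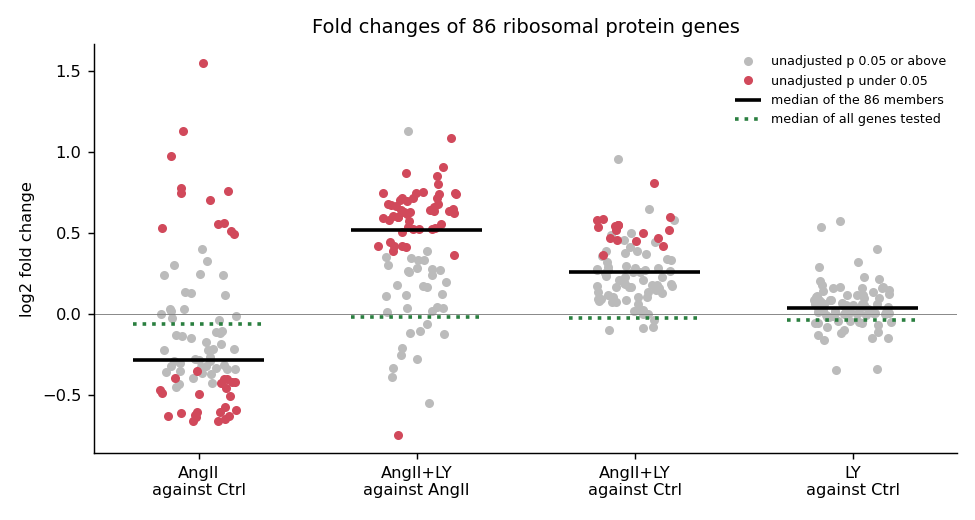
Log2 fold changes of the 86 tested members in 4 comparisons, with red for an unadjusted p under 0.05. Solid lines are the member medians and dotted lines the medians of all genes tested: -0.29 against -0.06 for AngII against Ctrl and 0.52 against -0.02 for AngII+LY against AngII.

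The direction followed the base composition of the transcripts. GC content ran from 40.6 to 59.6% among the members, with a median of 50.6%. The median log2 fold change of AngII against Ctrl was -0.01 in the 43 members of lower GC content and -0.37 in the 43 of higher GC content. All 12 members that were above Ctrl at an unadjusted p under 0.05 belonged to the first set, as did 6 of the 24 below Ctrl. Spearman's rho of log2 fold change with GC content was -0.602 over 86 members and -0.547 over the 19043 genes with a GC value, as descriptions across genes that share the same libraries.

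Each library's deviation from Ctrl followed GC content with a rho of -0.308 to -0.461 in AngII mice, -0.299 to 0.17 in Ctrl mice and -0.264 to -0.0191 in AngII+LY mice, steepest in AngII mice 4 and 3. After each library was corrected for GC content, the member median was 0.08 and that of all genes 0.12, which placed the members 0.03 below all genes instead of 0.23 below. With this correction 14 members were higher and 8 lower at an unadjusted p under 0.05, against 2854 of 19145 genes in either direction. The log2 fold change of Rpl39 was 1.47 with the correction, whereas Rpl22l1 moved from 1.13 to 0.66, Rpl7a from -0.66 to -0.33, Rps3 from -0.60 to -0.24 and Rpl13 from -0.66 to -0.10, and the last 2 lost their unadjusted p under 0.05. Without AngII mice 3 and 4, 4 members had an unadjusted p under 0.05, against 1648 of 19219 genes. The member median was then -0.18 and that of all genes -0.05, with Rpl39 at 0.96, Rpl7a at -0.38, Rpl13 at -0.42 and Rps3 at -0.34. Whether GC content, mitochondrial share or these 2 libraries produced the split was not tested.

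**Figure D3:**
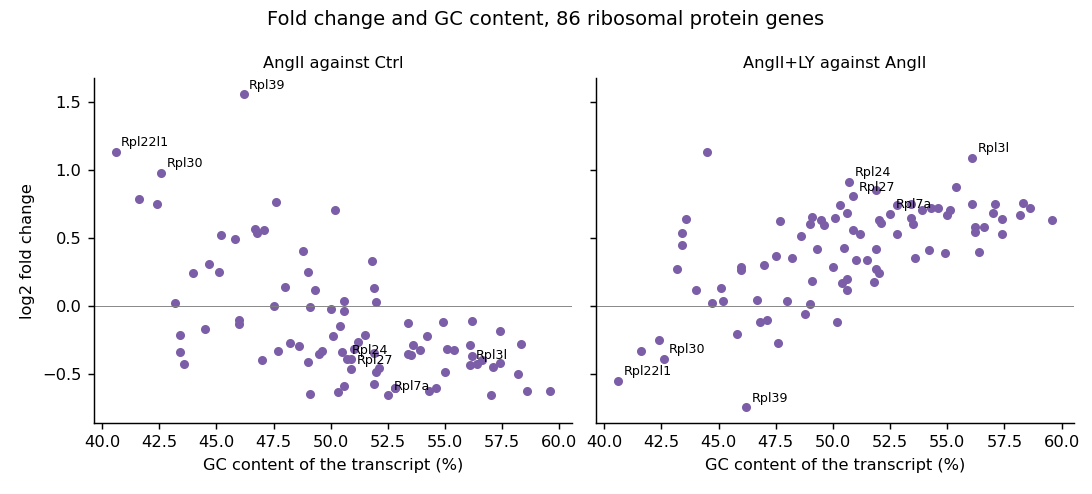
Log2 fold change of each of the 86 members against the GC content of its transcript, for AngII against Ctrl (left) and AngII+LY against AngII (right). The cloud slopes down on the left (rho = -0.602) and up on the right (rho = 0.611), and Rpl39 lies apart from it in both panels.

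The comparison of AngII+LY with AngII asks what LY272015 changed in mice infused with AngII, and here most members pointed one way. Of 86 members, 75 were higher in AngII+LY mice, with a median log2 fold change of 0.52 against -0.02 over all genes tested. At an unadjusted p under 0.05, 50 members were higher (58.1%) against 10.1% of all genes, and 1 was lower against 12.4%. Groups did not overlap for 45 members that were higher, against 5.45% of all genes, and for 0 that were lower, against 5.66%. By edgeR's quasi-likelihood test 0 members and 0% of all genes passed the adjusted threshold, with a smallest member adjusted p of 0.0588. DESeq2 called 43 members higher and 0 lower, against 7.13% and 7.37% of the genes it tested, and edgeR without its legacy option called 3 members, Rplp2, Rpl27 and Rpl24, against 0.919% of all genes. Leaving out AngII mouse 1, edgeR called 22 members and 4.4% of all genes.

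The acidic stalk of the large subunit, which recruits elongation factors, is built from Rplp0, Rplp1 and Rplp2. Rplp2 (GRCm39 chr7:141027274-141034167, plus strand) had 12890, 9210, 10710 and 6853 normalized counts in AngII mice and 17980, 17940, 19220 and 17540 in AngII+LY mice. The Ctrl mice had 12670, 13460, 12270 and 11430, and the LY mice 11270 and 11210. All 4 AngII+LY mice were above the other 10 mice. The log2 fold change against AngII was 0.87 ± 0.18 (SE, edgeR adjusted p = 0.0588). Rplp1 had 18550, 13600, 16590 and 12180 in AngII and 24810, 23360, 25120 and 21410 in AngII+LY mice (log2 fold change 0.64 ± 0.17 SE, edgeR adjusted p = 0.0694), and Rplp0 had a log2 fold change of 0.74 ± 0.21 (SE, edgeR adjusted p = 0.078). Neither overlapped between the 2 groups.

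Rpl24, a late-joining protein of the large subunit, had 1291, 876, 1008 and 764 normalized counts in AngII mice and 1834, 1924, 2095 and 1561 in AngII+LY mice. Its log2 fold change was 0.91 ± 0.19 (SE, edgeR adjusted p = 0.0588). Rpl27 had 5936, 4798, 4524 and 3365 in AngII and 8183, 7858, 8628 and 7851 in AngII+LY mice, with a log2 fold change of 0.80 ± 0.17 (SE, edgeR adjusted p = 0.0588). The groups did not overlap for either gene, and AngII mouse 4 was the lowest library in both. In the small subunit, Rpsa, also known as the laminin receptor, had 16770, 16020, 16300 and 10330 in AngII and 25500, 26400, 24150 and 23730 in AngII+LY mice. Its log2 fold change was 0.75 ± 0.18 (SE, edgeR adjusted p = 0.0597), without overlap.

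Some members did not follow. Rps6, the phosphorylation target of S6 kinase, had 11090, 10300, 12050 and 11450 normalized counts in AngII mice and 13730, 12540, 13750 and 10470 in AngII+LY mice, with overlap and a log2 fold change of 0.17 ± 0.15 (SE, edgeR adjusted p = 0.536). Rps23, at the decoding centre, had 0.26 and Rpl10 had 0.11. Of the 11 members with a negative log2 fold change, Rpl39 was the 1 with an unadjusted p under 0.05, at -0.75 ± 0.29 (SE, edgeR adjusted p = 0.151). AngII+LY mouse 1 overlapped the AngII mice, and the value was -0.15 without AngII mice 3 and 4 and -0.48 with the GC correction, with the p lost in both.

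**Figure D4:**
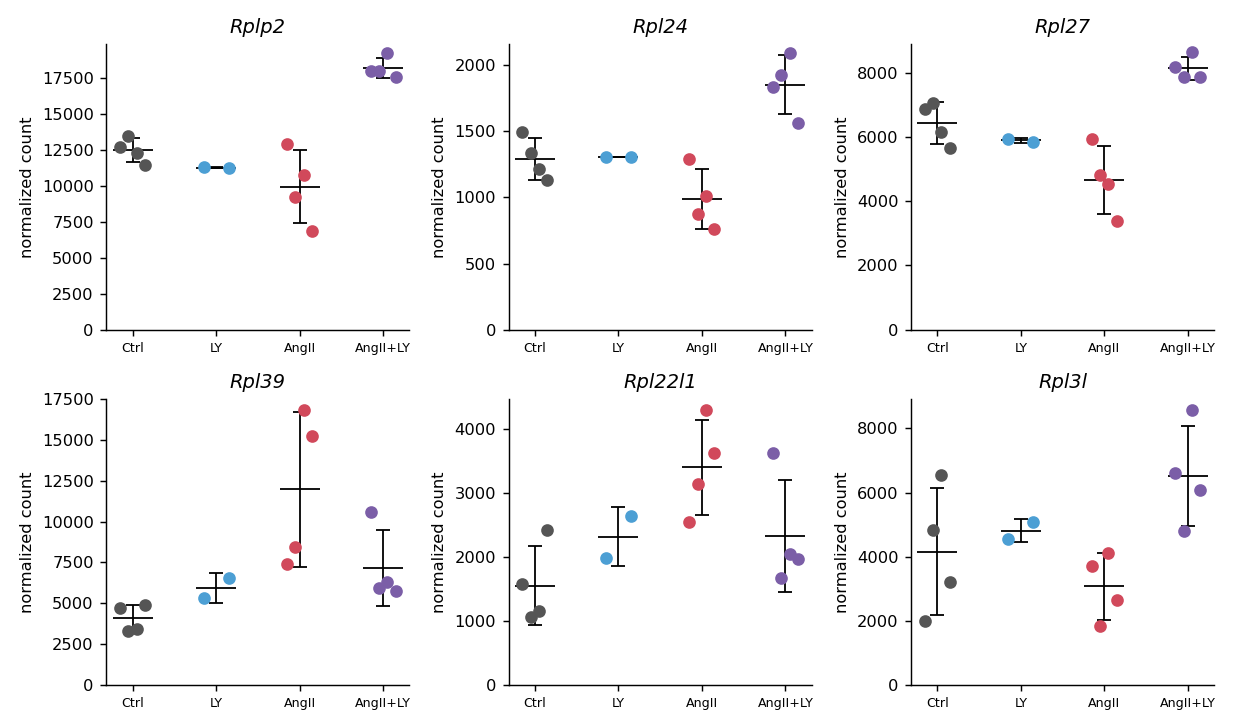
Normalized counts of 6 members in each mouse. Points are mice and bars are the mean ± SD of each group. Rplp2, Rpl24 and Rpl27 are highest in all 4 AngII+LY mice, whereas Rpl39 and Rpl22l1 are higher in every AngII mouse than in any Ctrl mouse.

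GC content also ran with this comparison, with a rho of 0.611 over the 86 members and 0.443 over 19043 genes. The median log2 fold change was 0.26 in the 43 members of lower GC content and 0.63 in the 43 of higher GC content, and all of the latter were positive. With the GC correction the member median was 0.42 against 0.01 over all genes. At an unadjusted p under 0.05 there were then 48 members, all higher, against 2915 of 19145 genes in either direction. Rpl24 stood at 0.90 and Rpl27 at 0.78 after the correction, whereas Rplp2 moved from 0.87 to 0.61, Rpsa from 0.75 to 0.46, Rplp1 from 0.64 to 0.29 and Rpl38 from 0.58 to 0.22, and the last 2 lost their unadjusted p under 0.05. Without AngII mice 3 and 4 the member median was 0.40. At that threshold 43 members were higher, against 2871 of 19219 genes in either direction. All 9 cardiomyocyte markers were higher in AngII+LY mice (7 at an unadjusted p under 0.05), with a median log2 fold change of 1.36. All 6 interstitial fibroblast markers were lower (3 at that threshold), with a median of -0.78 and 1.15 to 1.71% of the AngII counts against 0.465 to 0.867% of the AngII+LY counts. With the cardiomyocyte marker level as a covariate, 47 members were higher at an unadjusted p under 0.05, against 2275 of 19145 genes in either direction. The member median was 0.52, and the smallest member adjusted p in edgeR went from 0.0588 to 0.398. The fibroblast markers were not adjusted for. Apart from the covariate, the part of the markers in the result was not tested.

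AngII+LY mice were also compared with Ctrl mice, which served in the AngII comparison too. Of 86 members, 81 were higher and the median log2 fold change was 0.26, against -0.02 over all genes. At an unadjusted p under 0.05, 17 members were higher (19.8%) against 4.89% of all genes, and 0 were lower against 6.14%. By edgeR 0 members and 0% of all genes passed the adjusted threshold (smallest member adjusted p = 0.265), and DESeq2 called 4 members and 2.48% of the genes it tested. Rpl38, a small protein of the large subunit known for its part in translating Hox mRNAs, had 6283, 5820, 5075 and 5245 normalized counts in Ctrl and 8102, 8019, 7678 and 7238 in AngII+LY mice. The groups did not overlap, and the log2 fold change was 0.47 ± 0.14 (SE, edgeR adjusted p = 0.265). Rps21, a small subunit protein, had 5275, 4469, 3691 and 4148 in Ctrl and 6835, 7247, 5773 and 5918 in AngII+LY mice, without overlap (log2 fold change 0.55 ± 0.17 SE, edgeR adjusted p = 0.28). The count of 17 members stood beside 2112 of 19145 genes in either direction. It was 61 with the GC correction (2762 of 19145 genes) and 30 by DESeq2 (2489 of 18880). With the non-mitochondrial total as library size it was 8 (2273 of 19145), and with the cardiomyocyte marker level as a covariate 9 (997 of 19145). It was 11 without AngII+LY mouse 1 (1784 of 19166). All 9 cardiomyocyte markers were higher in AngII+LY than in Ctrl mice (6 at an unadjusted p under 0.05, median log2 fold change 1.09). All 6 fibroblast markers (3 at that threshold, median -0.76) and all 5 adipocyte markers (3, median -1.97) were lower, and apart from the covariate their part in the result was not tested.

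LY272015 alone gave no member an unadjusted p under 0.05, against 0.627% of all genes higher and 0.763% lower, and edgeR called 0 members and 0% of all genes. DESeq2 also called 0 members, with 0 at an unadjusted p under 0.05, against 21 and 428 of the 18880 genes it tested. The member median was 0.04 with values from -0.35 to 0.58, and only 2 LY mice entered the comparison. The effect of LY272015 with AngII against that without AngII had an unadjusted p under 0.05 for 20 members in the higher direction, against 5.66% of all genes, and for 2 in the lower direction, Rpl39 (-1.29 on the log2 scale) and Rpl22l1 (-1.13), against 7.64%. The smallest member adjusted p of this interaction in edgeR was 0.295, and DESeq2 called 3 members and 1.86% of the genes it tested. The member median of the interaction was 0.47 with all mice, 0.445 without LY mouse 1 and 0.444 without LY mouse 2. Over all genes these medians were 0.04, 0.08 and 0.10, and fits with 1 LY mouse left are read for size only. The member count was 22 with all mice, against 2545 of 19145 genes. It was 14 without Ctrl mouse 1 (2333 of 19094 genes) or AngII+LY mouse 3 (2145 of 19213), and 36 without AngII mouse 1 (3178 of 19162). Without AngII mice 3 and 4 it was 16 in the higher direction and 0 in the lower, against 1949 of 19219 genes in either direction.

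The subunits gave similar medians. For AngII against Ctrl the median log2 fold change was -0.33 over 52 large subunit members and -0.22 over 34 small subunit members. For AngII+LY against AngII it was 0.54 and 0.42, and 31 large and 19 small subunit members were higher at an unadjusted p under 0.05. Among the 10 members mutated in Diamond-Blackfan anemia, an inherited failure of red cell production, 9 had a positive log2 fold change in AngII+LY against AngII, 6 of them at that threshold, and 1 had a negative one that did not pass it, with a median of 0.45. This is near the 58.1% over all members. Rps19, the gene most often mutated, had a log2 fold change of -0.63 in AngII against Ctrl and 0.63 in AngII+LY against AngII. In AngII+LY against AngII, 6 of the 7 proteins at the tunnel exit had a positive log2 fold change. Of these, 4 had an unadjusted p under 0.05, also near the 58.1% over all members. Rpl39 had a negative log2 fold change that passed this threshold. Over all genes tested 10.1% were higher and 12.4% lower at this threshold.

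The spread between mice was widest among AngII mice. The median coefficient of variation of the 86 members was 20.3% with AngII, 11.7% with both agents, 12.3% in Ctrl and 3.8% in LY, and that of all genes tested, many of them at lower counts, was 38.5%, 35.5%, 29% and 17.5%. Relative to the members' own Ctrl means, AngII mouse 4 had a median log2 level of -0.004 in the members of lower GC content and -0.80 in those of higher GC content. AngII mouse 1 had 0.02 and -0.13 in the same sets.

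Paralogs were compared with their parent genes as the log2 ratio of counts. Rpl3l had 1991, 4837, 6556 and 3208 normalized counts in Ctrl, 4551 and 5076 in LY, 3710, 1825, 4100 and 2640 in AngII, and 6603, 4806, 8576 and 6084 in AngII+LY mice. The AngII+LY mice were all above the AngII mice and overlapped Ctrl, and the log2 fold change against AngII was 1.09 ± 0.34 (SE, edgeR adjusted p = 0.0934). With the cardiomyocyte marker level as a covariate it was 0.32, and with the GC correction 0.75, and the unadjusted p under 0.05 was lost in both. Its ratio to Rpl3 was 0.85 higher on the log2 scale with both agents (mean -1.14) than with AngII alone (mean -1.99). The exact 2-sided permutation p of 0.0286 was the smallest that 4 mice against 4 allow, and was 0.229 after adjustment over 28 comparisons.

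Rpl3l moved with the cardiomyocyte markers: over 14 libraries its log2 level had Pearson r = 0.86 (permutation p = 0.00011, Benjamini-Hochberg adjusted 0.00022) and Spearman rho = 0.83 (permutation p = 0.00046, adjusted 0.00092) with their mean log2 level. Without the 2 mice farthest on the marker axis, AngII+LY mouse 4 and Ctrl mouse 1, r was 0.85. Within Ctrl, AngII and AngII+LY, r was 0.84, 0.958 and 0.539 over 4 mice each.

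The log2 ratio of Rpl22l1 to Rpl22 was highest with AngII, at a mean of -0.80, and averaged -1.60 with both agents, -1.38 in LY and -1.96 in Ctrl mice. The difference of AngII from Ctrl was 1.16 with an exact permutation p of 0.0571 and an adjusted p of 0.229. Rps27l, a p53-induced paralog of Rps27, had a ratio 0.55 higher in AngII than in Ctrl mice (exact permutation p = 0.0857, adjusted 0.24). The ratio of Rps4l to Rps4x differed by -1.07 on the log2 scale, lower in AngII (exact permutation p = 0.0571, adjusted 0.229). Rpl39l to Rpl39 differed by -2.41 (exact permutation p = 0.0286, adjusted 0.229) and by -1.13 without AngII mouse 4, in which Rpl39l was at 0. Rpl7l1 to Rpl7 differed by -0.78, lower in every AngII mouse than in any Ctrl mouse (exact permutation p = 0.0286, adjusted 0.229). The smallest adjusted p over the 28 comparisons of 7 pairs was 0.229, and the pair of Rpl10l could not be tested. GC content was 40.6% in Rpl22l1 and 50.6% in Rpl22, and 44.7% in Rps27l and 48.2% in Rps27. It was 54.6% in Rps4l and 48.8% in Rps4x, and 51% in Rpl7l1 and 45.8% in Rpl7. Rpl39l (44.5%) lay below Rpl39 (46.2%), although its ratio was lower in AngII mice. The ratios were not corrected for GC content, and its part in them was not tested.

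**Figure D5:**
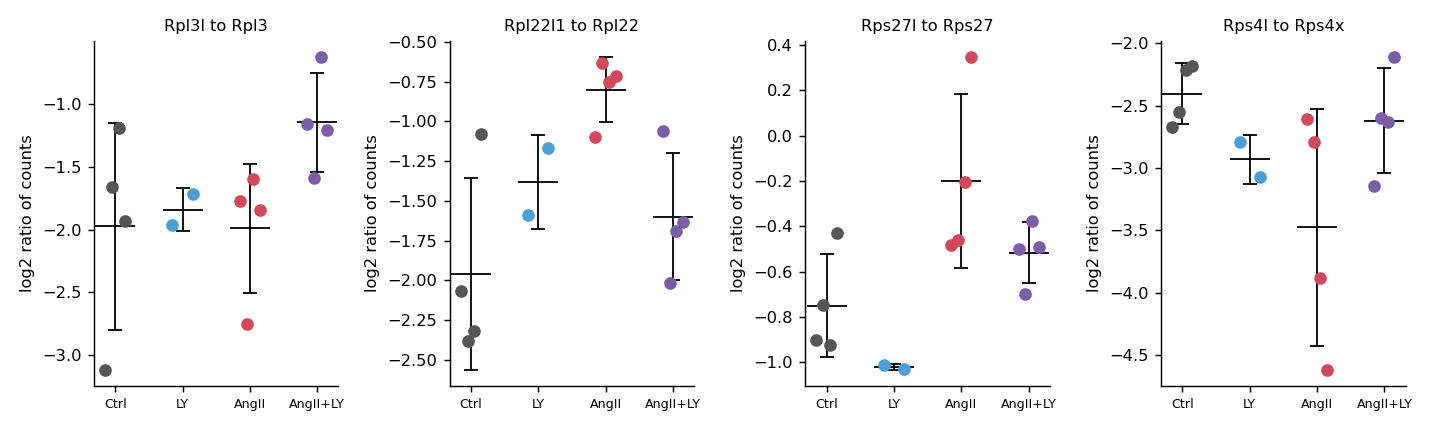
Log2 ratio of the counts of 4 paralogs to those of their parent genes in each mouse, each panel with its own axis. Points are mice and bars are the mean ± SD. The Rpl3l to Rpl3 ratio averages -1.14 in AngII+LY and -1.99 in AngII mice, and the Rpl22l1 to Rpl22 ratio -0.80 in AngII and -1.96 in Ctrl mice.

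Other genes of the translation machinery split in the same comparisons. Of 18 further TOP mRNAs, 6 lay above and 5 below Ctrl in AngII mice at an unadjusted p under 0.05, with a median log2 fold change of -0.06. Over all genes tested 13.4% lay above and 11.7% below. Tpt1, the translationally controlled tumour protein, had 32110, 29880, 27880 and 39230 normalized counts in Ctrl and 58940, 49000, 104900 and 121700 in AngII mice, without overlap (log2 fold change 1.37 ± 0.32 SE, edgeR adjusted p = 0.0574). Fau, which encodes the small subunit protein eS30 but does not carry an Rps symbol, had 8697, 7427, 7027 and 4656 in AngII and 11540, 12210, 12730 and 10420 in AngII+LY mice, also without overlap (log2 fold change 0.75 ± 0.18 SE, edgeR adjusted p = 0.0588). In AngII+LY against AngII, 7 of the 18 were above and 2 below, with a median of 0.05, against 10.1% and 12.4% of all genes.

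Of 30 genes of RNA polymerase I and ribosome assembly, 6 lay above and 7 below Ctrl in AngII mice at that threshold, and 7 lay above and 6 below AngII in AngII+LY mice. The shares of all genes were 13.4% and 11.7% in the first comparison and 10.1% and 12.4% in the second. Nop58, a core protein of box C/D particles, had log2 fold changes of 1.04 and -0.87 in these 2 comparisons, and Rrp12, which acts in subunit export, had 0.98 in the second. Of 14 genes of mTOR and translation control, 2 lay above and 3 below Ctrl in AngII mice, against the same 13.4% and 11.7% of all genes. Rps6kb1, the S6 kinase, had 0.73 ± 0.20 (SE, edgeR adjusted p = 0.0677) in that comparison, and Eif4ebp1, a brake on cap-dependent translation, had 0.82 ± 0.22 (SE, edgeR adjusted p = 0.0713) in AngII+LY against AngII. None of these genes passed edgeR's adjusted threshold in any comparison.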

How the data were processed

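Bulk RNA-seq counts from 14 mouse aortic valve libraries were used. The authors checked reads with FastQC 0.12.1, trimmed and aligned them with HISAT2 (build GRCm39), and used featureCounts for counting. The authors deposited whole-number counts per gene without further normalization, although the table is named as normalized. Options, strand setting and other versions are not given in the sources used here. Among counts up to 40, even values (60429) exceeded odd values (39338). Genes were matched to GENCODE vM39, where 618 had no match and held 0.0361% of counts. Library totals of 20990655 to 73128220 put 3 counts at 1.4e-05% of the smallest library, and floors cover counting error only.

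The fit took genes whose mean count reached 10, in edgeR 4.0.16 and R 4.3.3 (TMM, quasi-likelihood, 1 fit of 4 groups). A call needed an adjusted p (Benjamini-Hochberg) under 0.05 together with a log2 fold change beyond 0.5 in size. The planned test was the default of this edgeR version. The plan took that default to be the newer quasi-likelihood, and it proved to be the legacy one, so the planned legacy alternative was the same fit. The newer version had been run first, and its calls were known when this was found, so it is reported as an added alternative. Alternatives were DESeq2 1.42.0, RLE factors, the non-mitochondrial total, no filter, 2-group fits, the replicate block, a loess GC correction (span 0.3) alone and with the block, and leaving out each mouse. The newer quasi-likelihood, pseudogene counts added to members, removal of AngII mice 3 and 4 and the cardiomyocyte covariate were chosen after seeing the data.

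Lengths and GC content came from the shortest transcript with the full coding sequence, and pseudogene copies from blastn 2.17.0. Paralog ratios used log2((count + 0.5)/(parent + 0.5)) and exact permutations. Correlations used 100000 permutations. Scripts were tested on simulated data. The members and gene lists were chosen with earlier results of these data known. Named genes were the paralogs and parents, 9 listed members, the 3 members with the smallest p in each direction and comparison, and the 3 highest and lowest per kb, and other members and list genes were named after their values were seen. Same-numbered mice of different groups did not deviate together (18 pairs, r from -0.128 to 0.0897, 0 above 0.1), so the number was not taken as a pairing.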

Additional observations from a re-analysis of the deposited data

Results flagged for a closer look

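In groups of 4 mice, 1 mouse stood far from the other 3 in 11 of 117 groups examined, and chance flags about 1 in 20. AngII mouse 4 was far below the others for Rpl3 (9486 normalized counts), Rpsa (10330) and Rps10 (49.6). AngII+LY mouse 1 was far above for Rpl39 (10620) and Rpl30 (9069) and far below for Rps3 (16130). AngII+LY mouse 3 was far above for Rpl39l (122.4), and AngII+LY mouse 4 far below for Rpl11 (8921). Ctrl mouse 1 was far above for Rpl5 (12150) and Rps27rt (706.2), and Ctrl mouse 2 was below for Rps10 (128.3) only because the other 3 nearly coincided at 132.7 to 132.9.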

How the results depend on the processing

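For AngII+LY against AngII, the median log2 fold change of the members stayed within 1 SD of the reported value in all 26 other settings. This SD, 0.155 on the log2 scale, was the pooled within-group SD of the members' library medians, and a median of 0.40 passed. The count of members with an unadjusted p under 0.05 stayed within 1.5 times of its reported value in these settings. Settings without a Ctrl or LY mouse kept both compared groups whole, so they could move these values little. Leaving out 1 mouse moved the median of this comparison between 0.412 and 0.588 and the count between 48 and 53. For AngII against Ctrl the same removals gave medians from -0.357 to -0.184 and counts from 22 (without AngII mouse 4) to 49 (without AngII mouse 1), where the count with all mice was 36. For AngII+LY against Ctrl they gave medians from 0.191 to 0.322 and counts from 11 (without AngII+LY mouse 1) to 25 (without AngII mouse 4 or AngII+LY mouse 4), against 17. For the interaction they gave counts from 5 (without LY mouse 2) to 36 (without AngII mouse 1), against 22. For LY against Ctrl they gave medians from -0.0172 to 0.102 and counts of 0 or 1, with a lone LY mouse assumed to vary like the other groups. The group shares of the members ranged over these removals from 1.76 to 1.94% (Ctrl), 1.85 to 1.86% (LY), 1.32 to 1.51% (AngII) and 1.77 to 1.92% (AngII+LY). The GC correction gave 22 members and a median of 0.0848 for AngII against Ctrl, and 61 members and 0.476 for AngII+LY against Ctrl, and with the replicate block as well these were 20, 0.074, 59 and 0.468. Over all 19145 genes the block with GC correction gave 2384 for AngII against Ctrl and 2437 for AngII+LY against Ctrl. The replicate block alone gave 43 members for AngII against Ctrl and 49 for AngII+LY against AngII. It moved the interaction from 22 to 40, and over all genes it gave 4431, 3747 and 2494. DESeq2 gave 30 members for AngII+LY against Ctrl and 34 for the interaction (2489 and 3034 of 18880 genes). The non-mitochondrial total gave 8 and 9 (2273 and 2446 of 19145 genes). The fit of only 2 groups gave 1 member for LY against Ctrl (679 of 19330 genes). Without AngII mice 3 and 4 the counts were 4 for AngII against Ctrl and 29 for AngII+LY against Ctrl (1648 and 2850 of 19219 genes). With the cardiomyocyte covariate the latter was 9 (997 of 19145 genes). The cause was not tested for these changes. Non-mitochondrial counts as denominator gave shares of 2.04% (LY), 1.70% (AngII) and 2.13% (AngII+LY), and leaving out the paralogs gave 1.81% in LY. Without its legacy option edgeR called 555 genes for AngII against Ctrl and 176 for AngII+LY against AngII where the default called 0, and DESeq2 called 2648 and 2062. At an unadjusted p under 0.05 the default gave 4815 and 4315 genes. The paralog ratios had a smallest adjusted p of 0.2 under other settings, but with a smallest possible p of 0.0286 over 28 comparisons this says nothing about stability. The planned legacy option was the default itself and changed nothing. No named member changed direction where it had an unadjusted p under 0.05, and of 46 such results 17 lost that p under the GC correction, 17 without AngII mice 3 and 4, 16 with the block and GC correction together and 0 to 9 under each other setting. The other settings of the interaction were added after seeing the data. Depth limits Rpl39l and the 3 untested members, whereas counts on its copies limit the level of Rps10.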
